A study of Bos taurus with 30 samples.

Results

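bta-miR-320a, bta-miR-320b, bta-miR-484 and bta-miR-877 are bovine miRNAs of a class that mammalian cells can make without the nuclease Drosha. They are 4 of the 1030 miRNAs in the deposited table, found there by name, and 3 of them (miR-320a, miR-484 and miR-877) were abundant enough to be among the 387 tested. The 4 were grouped by how they are made, but they were picked from a list drawn up when the differences between the diets were already known, and miR-320a was known to be among the miRNAs called different. Their differences between the diets are therefore given as a description, with no p-value, and nothing is supported with them.

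The libraries hold small RNA of testis tissue, 1 library for each of 30 bull calves of the Holstein-Friesian dairy breed, fed 1 of 2 diets between 2 and 12 weeks of age. Each of the 15 calves on the High diet drank 10 L of milk daily, made with 1.5 kg of replacer powder, and ate concentrate freely, with 1.0 kg of daily gain intended. Each of the 15 on the Moderate diet drank 4 L made with 0.5 kg of powder and ate 0.5 kg of concentrate, with 0.5 kg intended. No untreated group was part of the comparison, so each diet is described against the other.

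Most miRNAs are cut out of a long nuclear transcript as a hairpin by Drosha with its partner DGCR8, and Dicer then removes the loop in the cytoplasm. Some hairpins need no Drosha. The miR-320 hairpin is transcribed as a short RNA with its own cap, miR-484 is also made as an endogenous short hairpin, and miR-877 is a mirtron, a hairpin that is itself an intron and is released by splicing. All of them still depend on Dicer. These routes were worked out in mouse and human cells, and the small RNA reads of calf testis do not measure which enzyme cut a hairpin.

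The gene table of the bovine assembly ARS-UCD2.0 placed all 4 members, by 5 genes. miR-320a has 2 gene copies on different chromosomes. One, MIR320A-1, lies between PHYHIP and POLR3D, a subunit gene of RNA polymerase III, and the other, MIR320A-2, lies inside RNF180. The table of values has 1 row for miR-320a, so reads from the 2 copies cannot be told apart. MIR320B overlaps no other gene. MIR484 lies between MARF1 and NDE1, a gene needed for spindle orientation, and MIR877 lies inside ABCF1, a gene with a part in translation. MIR2378, the other miRNA gene within 10 kb of a member, neighbours MIR877. Its product miR-2378 had 4 reads in 2 of the 30 libraries, against 2887 reads of miR-877 in all 30. No mature or hairpin sequence is printed, since no sequence table was used here.

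Values are the deposited ones, in CPM, counts per 1e6 reads, after TMM scaling (trimmed mean of M values). This scaling aims to set the bulk of the miRNAs level between libraries. Depth ran from 6.0003 to 19.98 megareads. It fell into 24 libraries of up to 10.3 megareads (11 High, 13 Moderate) and 6 of 16.7 or more (4 High, 2 Moderate). The titles of 18 libraries, 9 of each diet, name the other diet than the diet characteristic used here. One library, replicate 5 of the Moderate diet (Moderate 5), stood apart. Of its reads 84.8% came from miR-10b, where the other 29 libraries had 37.0% to 49.0%, and its TMM factor of 0.237 lay below their range of 0.8997 to 1.23. Even after TMM scaling, the tested miRNAs in Moderate 5 had a median log2 ratio of -0.41 to their mean in the other 29. Results that rest on Moderate 5 are given with and without it.

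The 4 members differed widely in level. In reads over all 30 libraries, miR-320a had 219075, miR-484 had 19733, miR-877 had 2887 and miR-320b had 3, of 307.4 megareads in all. Ranked by mean level among the 387 tested miRNAs, miR-320a was 65th, miR-484 was 142nd and miR-877 was 236th. As CPM of the library total, without TMM scaling, miR-320a averaged 717, miR-484 averaged 64.4 and miR-877 averaged 9.56. The libraries' adapters join some miRNAs more readily than others, so these levels set the members in order within this assay and not by molecules per cell.

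miR-320a was the most abundant member. Under High it ran from 532.999 TMM-scaled CPM in High 5 to 734 in High 9, with a median of 680.2. Under Moderate it ran from 615.6 in Moderate 15 to 895 in Moderate 1, with a median of 748. The ranges overlapped, but each of the 15 High values was lower than the Moderate median and 13 of 15 Moderate libraries lay above the High median. The mean was 649 ± 68.6 (SD, n = 15) under High and 752 ± 80.6 (n = 15) under Moderate. On the log2(value + 0.5) scale the difference, High minus Moderate, was -0.21 with a standard error of 0.06, a level 13.7% lower under High. In bulk tissue, fewer cells that hold an miRNA and less of it per cell cannot be told apart.

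miR-484 lay an order of magnitude lower and differed in the same direction. Under High it ran from 52.9 in High 14 to 69.8 in High 15, with a median of 57.95, and under Moderate from 49.9 in Moderate 5 to 76.5 in Moderate 2, with a median of 65.3. The ranges overlapped widely, with 13 of 15 High libraries below the Moderate median. The mean was 59.6 ± 4.38 (SD, n = 15) under High and 65.5 ± 6.97 (n = 15) under Moderate, a log2 difference of -0.13 with a standard error of 0.06. Its lowest value of all 30 libraries came from Moderate 5, and without that library the Moderate mean was 66.6 ± 5.69 (n = 14) and the log2 difference -0.16 with a standard error of 0.05.

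miR-877, the mirtron, stood at like levels under both diets in every library but 1. Under High it ran from 6.87 in High 12 to 10.6 in High 8, with a median of 9.20. Under Moderate it ran from 6.96 in Moderate 12 to 42.3 in Moderate 5, with a median of 8.99 and a next highest value of 10.9 in Moderate 13. The mean was 9.16 ± 1.07 (SD, n = 15) under High and 11.2 ± 8.699 (n = 15) under Moderate, or 8.95 ± 1.22 (n = 14) without Moderate 5. The log2 difference was -0.11 with a 95% confidence interval of -0.43 to 0.20 over 30 libraries, and 0.03 with an interval of -0.11 to 0.18 over 29. The negative sign of the miR-877 difference thus rested on 1 library.

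miR-320b was at the edge of detection. It had 1 read in each of 3 High libraries (High 3, High 4 and High 10) and none in the other 12 High libraries or in the 15 Moderate ones. All 3 belong to the 6 deep libraries. Taking 3 reads as what a count of 0 still allows, the limit was 0.138 to 1.43 TMM-scaled CPM depending on the library, so a level under it, and any difference in it between the diets, was not detectable at this depth. It was not tested. None of the deposited values of the 4 members was a fraction of a read, but the sources used here do not give how reads that match both miR-320a and miR-320b were assigned, so the split between these near relatives is uncertain.

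**Figure D1:**
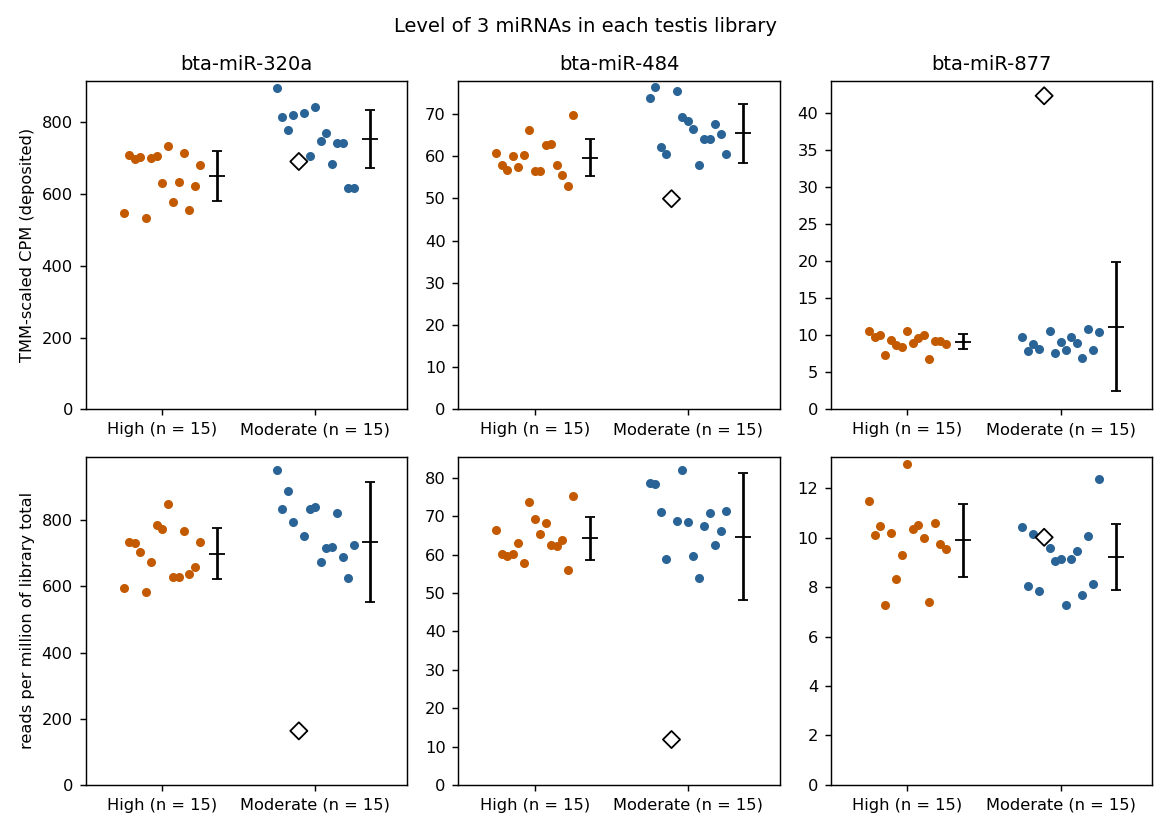
Level of miR-320a, miR-484 and miR-877 in each library (1 point per calf, 15 per diet), as deposited in TMM-scaled CPM (upper row) and as CPM of the library total without that scaling (lower row), with mean and SD beside the points and Moderate 5 as an open diamond. On the upper scale Moderate 5 is far above the others for miR-877 (42.3), and on the lower scale it is far below them for miR-320a (163) and miR-484 (11.8).

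In the limma fit of all 387 miRNAs, with Benjamini-Hochberg adjustment and a threshold of 0.05, 19 were called (4.91%), 10 of them lower under High (2.58%). Of the 3 members tested, miR-320a was called and miR-484 and miR-877 were not. For all 15 High libraries to lie below the Moderate median, as those of miR-320a did, was found for 9 of the 387 (2.33%). Since the members were picked with this contrast known, nothing is read from these counts. The median log2 difference of the 3 members was -0.13, beside 0.03 over all 387, and all 3 were negative in the 30 libraries, beside 169 of the 387 (43.7%).

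The call for miR-484 depended on Moderate 5 and on the tool. Without that library 45 of 385 miRNAs were called in limma (11.7%), miR-320a and miR-484 among them. On whole reads recovered from the deposited values, edgeR's quasi-likelihood test called 30 of 377 (7.96%). DESeq2 called 52 of the 838 miRNAs with any read (6.21%). By default it leaves miRNAs with few reads out of its adjustment, so the share among those it adjusted is higher and was not counted. Both tools called miR-320a and miR-484 but not miR-877. The call for miR-320a in turn rested on many single libraries. In 30 fits that each lacked 1 library it was called in 16 fits and not in 14, those without High 1, 5, 8, 10, 11, 13 or 14 and without Moderate 1, 2, 3, 4, 6, 8 or 13. Its log2 difference stayed between -0.23 and -0.19 in all 30 of these fits.

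The size of each difference also depended on the scaling. With library totals alone, that is, CPM without TMM scaling, the log2 difference of miR-320a was -0.00020, that of miR-484 was 0.08 and that of miR-877 was 0.09. The median over all tested miRNAs moved to 0.21 on that scale. Relative to the median of all tested miRNAs, miR-320a stood at -0.24 as deposited and at -0.21 with library totals, and miR-484 at -0.16 and -0.14. Without Moderate 5, library totals gave -0.15 for miR-320a, -0.09 for miR-484 and 0.10 for miR-877, with the median of all at 0.07.

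Within parts of the series, miR-320a and miR-484 kept their sign and miR-877 did not. In the 24 libraries of up to 10.3 megareads the log2 difference of miR-320a was -0.22 and in the 6 deeper ones -0.23. That of miR-484 was -0.11 and -0.25, and that of miR-877 was -0.14 and 0.14. In the 12 libraries whose title and diet characteristic give 1 diet, miR-320a averaged 624 ± 86.8 under High and 784 ± 81.99 under Moderate (n = 6 each), a log2 difference of -0.33. In the 18 libraries whose labels conflict, grouped by the characteristic, it averaged 666 ± 52.1 and 731 ± 76.7 (n = 9 each), a difference of -0.13. miR-484 stood at -0.15 in the 12 and -0.12 in the 18, and miR-877 at -0.38 and 0.07. Moderate 5 is among the 24 shallower libraries and among the 12. Without it, the difference of miR-877 was 0.02 in the former and -0.02 in the latter, and that of miR-484 was -0.14 and -0.23. With the diet taken from the titles, the differences were -0.06, 0.01 and -0.20, and none of the 387 miRNAs was called in limma, with 11 at an unadjusted p under 0.05. Every statement on diet therefore depends on the diet characteristic being the right label.

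**Figure D2:**
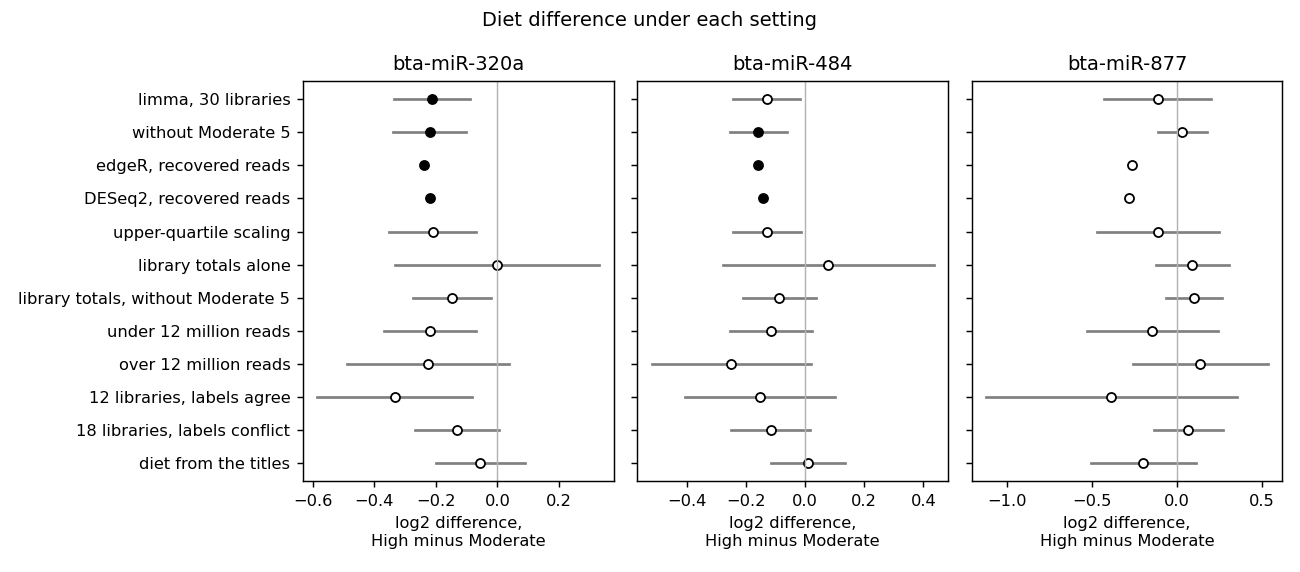
Log2 difference, High minus Moderate, of miR-320a, miR-484 and miR-877 under 12 settings (points), with 95% confidence intervals as grey lines where limma gave them and filled points where the miRNA was called at an adjusted p under 0.05. miR-320a lies at -0.00020 with library totals alone, at -0.06 with the diet from the titles and further below 0 elsewhere. miR-877 lies on both sides of 0.

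Moderate 5 divided the members. As deposited, miR-877 in this library was 4.67 times its mean of 9.06 ± 1.13 in the other 29, while miR-320a was at 0.984 of its mean and miR-484 at 0.793. Of the 387 tested miRNAs, miR-877 ranked 7 from the top by log2 ratio of this library to the mean of the rest, at 2.16, against a median of -0.41 over all. As a share of reads the picture was turned around. miR-877 took 10.02 CPM of the total of Moderate 5, within the 7.28 to 13.01 of the other 29, whereas miR-320a took 163 against 583 to 953 and miR-484 took 11.8 against 53.9 to 82.0. In raw reads, this library held 89 of miR-877, 105 of miR-484 and 1450 of miR-320a. The mirtron thus took its usual share of a library made up mostly of miR-10b, while miR-320a took 0.222 and miR-484 took 0.178 of their mean share in the other 29. Of the 3 red blood cell miRNAs, miR-486 was at its highest of the 30 libraries here and miR-451 and miR-144 were at their lowest.

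**Figure D3:**
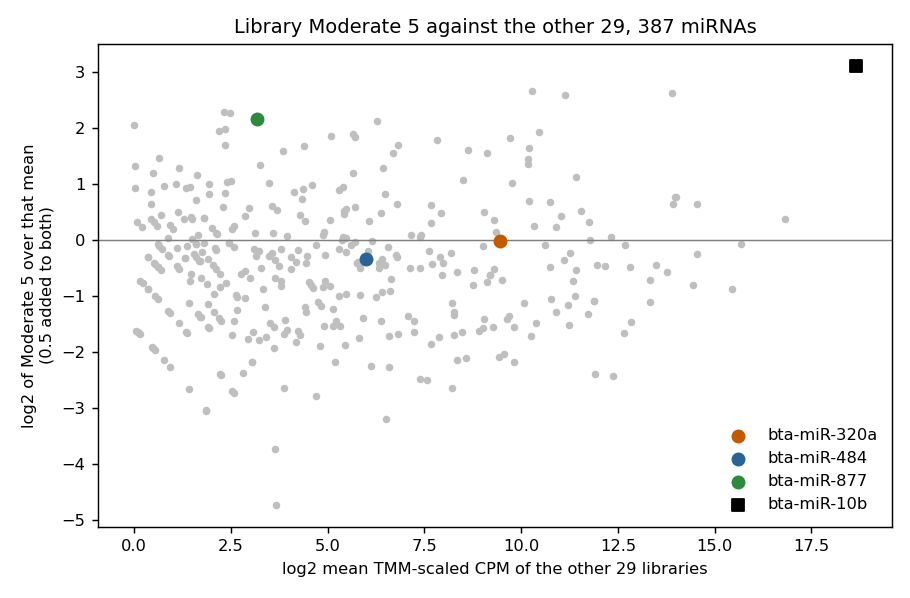
Log2 ratio of Moderate 5 to the mean of the other 29 libraries (y axis) against the log2 of that mean in TMM-scaled CPM (x axis) for the 387 tested miRNAs (grey), with miR-320a, miR-484, miR-877 and miR-10b marked. miR-877 lies at 2.16, far above miR-320a (-0.02) and miR-484 (-0.33).

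The members' proportions to each other do not depend on any scaling. The reads of miR-320a were a median of 11.2 times those of miR-484 under High, from 8.97 in High 1 to 12.97 in High 9, and 11.3 times under Moderate, from 9.43 in Moderate 14 to 13.8 in Moderate 5. This ratio overlapped almost completely between the diets. The reads of miR-320a were a median of 69.6 times those of miR-877 under High and 87.4 times under Moderate. The lowest such ratio was 16.3, in Moderate 5, and the next lowest was 51.7 in High 1. The reads of miR-484 were a median of 6.25 times those of miR-877 under High and 7.47 times under Moderate, and in Moderate 5 the 2 were nearly equal, at 1.18 times.

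Within a diet and without Moderate 5, miR-484 and miR-877 varied less than most tested miRNAs near their level, and miR-320a did not. Over the 29 libraries without Moderate 5, the SD around the diet mean was 10.998% of the level for miR-320a, 7.82% for miR-484 and 12.97% for miR-877. Counting error alone, from the number of reads, gives 1.24%, 4.11% and 10.9%. For miR-877, with 53 to 210 reads per library, the counting error thus came close to the observed spread without reaching it, while for miR-320a the spread was many times larger than the counting error. On the log2 scale the within-diet SD of miR-484 was 0.11, and of the 63 other tested miRNAs within a factor of 2 of its level 2 varied less. For miR-877 it was 0.18, and 8 of 73 such miRNAs varied less. For miR-320a it was 0.16, and 20 of 35 varied less. The median over all 387 was 0.25. With Moderate 5 included, the SD of miR-877 was 0.44, beside a median of 0.33 over all 387. Over those 30 libraries, 3 of the 35 varied less than miR-320a, 3 of the 63 less than miR-484 and 49 of the 73 less than miR-877. The standing of miR-320a and miR-877 among miRNAs near their level thus depended on Moderate 5. These ranks describe the libraries and carry no test.

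**Figure D4:**
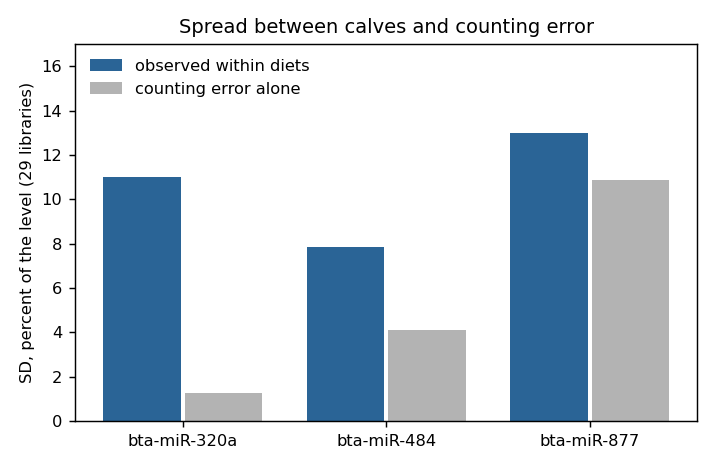
SD within diets over 29 libraries, without Moderate 5, as a percent of the level (blue), beside the SD that counting error alone gives (grey), for miR-320a, miR-484 and miR-877. The 2 bars are close for miR-877 (12.97% and 10.9%) and far apart for miR-320a (10.998% and 1.24%).

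On the deposited TMM scale no pair of members passed the test of varying together after adjustment. With library totals alone, the pair of miR-320a and miR-484 passed. There both are shares of a total in which miR-10b takes 37.0% to 84.8%. Other pairs of miRNAs were not compared on that scale, so this pass is not read as the 2 varying together. With the diet means removed, which leaves the diet difference out, the 3 pairs of tested members were compared across the 30 calves by permutation within diets (100000 resamples, two-sided, Benjamini-Hochberg over the 3 pairs). miR-320a and miR-484 had a Pearson r of 0.33 (permutation p = 0.0781, adjusted p = 0.117) and a Spearman rho of 0.28 (permutation p = 0.138, adjusted p = 0.252). Without the 2 calves farthest from the median of miR-320a, r was 0.32, and without Moderate 5 it was 0.31. miR-320a and miR-877 had an r of -0.21 (permutation p = 0.286, adjusted p = 0.286) and a rho of -0.25 (permutation p = 0.168, adjusted p = 0.252). Without the 2 farthest calves r was -0.28.

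For miR-484 and miR-877, r was -0.53 (permutation p = 0.0277, adjusted p = 0.0831) and rho -0.20 (permutation p = 0.285, adjusted p = 0.285). That r rested on Moderate 5. Without this library r was -0.04, and without the 2 calves farthest from the median of miR-484, of which it is one, r was 0.03. With library totals alone, the pair of miR-320a and miR-484 had an r of 0.94 (permutation p = 0.00060, adjusted p = 0.0018) and a rho of 0.56 (permutation p = 0.00396, adjusted p = 0.0119). Without Moderate 5, where both take a small share, r was 0.45 (permutation p = 0.0181, adjusted p = 0.0542) and no longer passed, while rho was 0.47 (permutation p = 0.0124, adjusted p = 0.0372) and still did. The counting error of miR-877 limits its correlations. Within the 24 libraries of up to 10.3 megareads, the 3 r values were 0.35, -0.18 and -0.52, and none passed after adjustment. The 6 deeper libraries were too few in each diet for a value of their own.

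**Figure D5:**
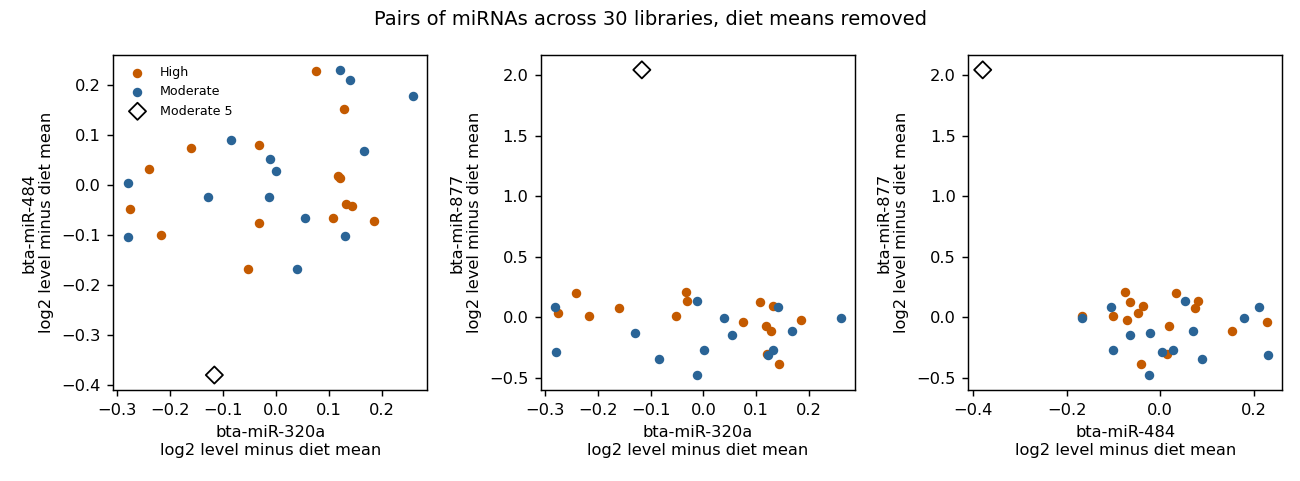
Log2 level minus the diet mean for each pair of miR-320a, miR-484 and miR-877 across the 30 libraries (orange High, blue Moderate, open diamond Moderate 5). Apart from Moderate 5, the points of miR-484 against miR-877 form a round cloud (r = -0.04 over 29), and those of miR-320a against miR-484 lean upward (r = 0.31 over 29).

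By Spearman rho over the 30 libraries with diet means removed, other miRNAs tracked each member more closely than the members tracked each other. Nearest to miR-320a were miR-376e (0.62) and miR-487b (0.61), both encoded in the imprinted DLK1-DIO3 region, and miR-197 (0.61), and these were also its nearest 3 without Moderate 5. Of these, miR-487b was called lower under High, with a log2 difference of -0.27. Nearest to miR-484 were miR-214 (0.58), miR-455-5p (0.58) and miR-2285ar (0.500), and without Moderate 5 the first 2 stayed first and miR-181a (0.52) came next. Nearest to miR-877 were miR-7 (0.47), miR-2285br (0.44) and miR-141 (0.42). Without Moderate 5 these were replaced by miR-185, miR-487a and miR-2318 (0.39 to 0.44). Among the 386 other tested miRNAs, miR-484 came 66th in likeness to miR-320a and miR-877 came 321st. The median rho of miR-320a with the 386 was 0.03, that of miR-484 was 0.03 and that of miR-877 was -0.06. These are descriptions over libraries that share their scaling, and the nearest of so many are high by selection.

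No difference between the depth ranges passed the test. With diet means removed, the 6 deep libraries differed from the 24 others by 0.06 on the log2 scale for miR-320a (exact permutation p = 0.374, n = 6 and 24, two-sided), by 0.06 for miR-484 (exact permutation p = 0.272) and by -0.16 for miR-877 (exact permutation p = 0.239), each with an adjusted p of 0.374 over the 3.

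In the deposited table, other mirtrons and the miRNAs from small nucleolar RNAs had few reads, none, or no row. An miRNA without a row was not measured, and the miRNA set behind the rows is not given, so their absence from the tissue is not shown. Of 13 other mirtrons looked for, 2 had a row in the table. miR-1224 had 28 reads over 13 libraries, and miR-1225-3p was listed at 0 throughout. Of 5 miRNA numbers derived from small nucleolar RNAs, 3 were found at 0 in all libraries (miR-664a and miR-664b, miR-1291 and miR-1839), miR-1248 had 1 read and miR-3651 had no row. None of these was tested. Of all 1030 miRNAs listed, 387 were tested and 192 were at 0 in all 30 libraries. miR-451, the red blood cell miRNA that needs Drosha but not Dicer, had 29931 reads, from 29.01 to 289 TMM-scaled CPM, and was not called, with a log2 difference of 0.25 and a standard error of 0.27.

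The tissue was checked by marker miRNAs. miR-202, of gonadal somatic cells, was present in all 30 libraries, at 1904 to 2672 under High and 1055 to 3282 under Moderate, and the liver miRNA miR-122 was at 2.84 or less. The striated muscle miRNAs miR-1 and miR-206 were listed at 0, but miR-133a had 3219 reads and miR-499 had 1805, each in all 30 libraries. The 7 rows of that list summed to 15.8 to 24.1 under High and 3.81 to 24.3 under Moderate, and none of its 3 tested members was called. Of the 10 marker lists, that of meiotic germ cells held called members. Of its 3, miR-34b and miR-34c were higher under High, and miR-449a was not called, at a log2 difference of 0.02. Whether these calves had meiotic germ cells at 12 weeks of age was not tested. The summed level of this list was 89.3 to 265 under High and 21.9 to 185 under Moderate (40.5 to 185 without Moderate 5). The 3 red blood cell miRNAs summed to 887 to 3606 under High and 755 to 1870 under Moderate without Moderate 5, in which they summed to 7927, and none was called. In Moderate 5 nearly the whole sum was miR-486, at 7898, while miR-451 at 29.01 and miR-144 at 0.476 were the lowest of all 30 libraries. The 5 epithelial miRNAs summed to 11.5 to 17.4 under High and 10.7 to 24.8 under Moderate, and none of the 4 tested was called. The part of these cells in the differences of miR-320a and miR-484 was not tested.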

How the data were processed

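The authors deposited 1 table for all 30 libraries. Per the labels' protocols, RNA was extracted with a Qiagen RNeasy Plus Universal kit and made into libraries with an Illumina TruSeq small RNA kit. The submitters' processing notes list edgeR 3.5, R 3.4, cutadapt 2.6 and FastQC 0.11.8. Which aligner, build and miRNA set served is not given in the sources used. The deposited values are a normalized signal, not counts: each column holds CPM of a TMM-scaled library size, worked out from the values. Dividing by the value of 1 read gave whole reads, within 0.02 read, for 95.3% of the 18379 values above 0.

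Groups follow the diet characteristic, and replicate numbers follow accession order. limma 3.58.1 (R 4.3.3) with a mean-variance trend was fitted to log2(value + 0.5) for the 387 miRNAs that reached 1 in 15 or more libraries, with Benjamini-Hochberg adjustment over all of them at 0.05. This pseudocount understates differences of low miRNAs. edgeR 4.0.16 and DESeq2 1.42.0 were run on the recovered reads, rounded to whole numbers. All 3 were also run on simulated data. The planted differences were larger than those of the members, so that run does not bear on the members' calls. Reads carry no molecular identifiers, so limits cover counting error only. Every pair of libraries differed by more than sampling noise (lowest chi-square per degree of freedom 60.1 over 435 pairs). Gene positions come from RefSeq's ARS-UCD2.0, with no coordinates printed. Named are the 4 members, the 3 miRNAs most like each by Spearman rho, and fixed lists of other non-canonical and marker miRNAs. miR-2378 was added after its value was seen. Members and lists were chosen with earlier results of these data known. A planned comparison of seeds was not made, as no sequences were used here, and a planned set of 6 correlations became 3 because miR-320b was almost always 0. Alternatives covered pseudocount, filter, scaling, tool, single libraries, depth and the diet in the titles.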

Additional observations from a re-analysis of the deposited data

How the results depend on the processing

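The count of 19 miRNAs called became 0 with no filter on low values (838 tested, 104 at an unadjusted p under 0.05 in limma), 0 with library totals alone (61), 0 with the diet from the titles (11), 0 in the 12 libraries with 1 diet in both labels (43) and 0 in the 18 with conflicting labels (58). It became 30 in edgeR, 52 in DESeq2, 45 without Moderate 5 (31 with library totals, 47 in edgeR), 3 in the libraries under 12 megareads (31 without Moderate 5) and 2 in those over 12. Leaving out each library gave 0 (without High 5) to 45. miR-320a was no longer called with no filter (-0.21), library totals alone (-0.00020, or -0.15 without Moderate 5), upper-quartile scaling (-0.21), under 12 megareads (-0.22), over 12 (-0.23), the titles (-0.055), the 12 libraries (-0.33) or the 18 (-0.13). Single libraries left out moved it between -0.23 and -0.19, and miR-320a was not called in 14 of these 30 fits. miR-484 became called in edgeR (-0.16, or -0.15 without Moderate 5), DESeq2 (-0.14) and limma without Moderate 5 (-0.16), and changed sign with library totals (0.079) and the titles (0.0093). Single libraries moved it between -0.16 and -0.11. miR-877 changed sign with library totals (0.093, or 0.10 without Moderate 5), without Moderate 5 (0.034 in limma, 0.046 in edgeR, 0.024 under 12 megareads), over 12 megareads (0.14) and in the 18 libraries (0.069), and single libraries moved it between -0.15 and 0.034. It was called in none of the settings run.

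The correlation of miR-320a and miR-484 passed with library totals (0.94), and without Moderate 5 on that scale by rho (0.47) but not by r (0.45). That of miR-484 and miR-877 changed sign without the 2 farthest libraries (0.033), without Moderate 5 under 12 megareads (0.061) or with library totals (0.29), and that of miR-320a and miR-877 in the last of these (0.013). The causes were not tested. No paired analysis was possible because the numbers of the replicates come from accession order and tie no calves together. Other settings kept each sign and call. Depth limits miR-877 and miR-320b most. Added after the data were seen were both further fits without Moderate 5 (library totals, edgeR), those under 12 megareads without it and those over 12, and the depth comparison without it.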
